A study of Mus musculus with 2 samples.

Results

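The cells described here are mouse embryoid body (EB) cells in which the transcription factor gene Mesp1 was high while Kdr and Sox17 were at 0 UMIs (unique molecular identifiers, each standing for 1 captured transcript). Cells were barcodes above a UMI minimum (the EB cell with the fewest had 6233 UMIs) with at most 10% of their UMIs from mitochondrial genes. A cell belonged to the group when it had 0 Kdr UMIs, 0 Sox17 UMIs and Mesp1 at 500 CPM or more (CPM, the gene's UMIs scaled to 1000000 UMIs of the cell). Of 1878 EB cells, 334 met the rule (17.8%, 95% interval 16.1 to 19.6), and they made up 54.4% of the 614 Mesp1-high cells. They are called the Kdr-negative Mesp1-high cells. They are set against the 180 Mesp1-high cells with at least 2 Kdr UMIs (9.58% of EB cells, called the Kdr-positive Mesp1-high cells). No condition on Sox17 was set for these 180, and 6 of them had Sox17 UMIs. The group is also set against all 1544 other EB cells, which include those 180.

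The study compared 2 sources of early blood and vessel cells by droplet single-cell RNA sequencing on the 10x Genomics Chromium system, with 1 library from each. The EB library came from C57BL/6 mouse embryonic stem cells that had been kept on feeder fibroblasts with LIF and then grown without feeders for 2 days. They were seeded at 8000 cells per mL in serum medium with ascorbic acid and MTG, conditions meant to favour hemangiogenic mesoderm, and the aggregates were dissociated at day 4 with Accutase for 5 minutes. The EB cells were frozen, thawed and sorted for live cells before loading, and the labels describe no sort of them on a surface marker. The second library was of yolk sacs (YS) of C57BL/6 embryos, E9.5 and E10.5 mixed, sorted to take out dead cells and some 70% of Ter119+ erythroid cells. It served only as a background, and 0 of its 780 cells at the same limits met the rule, with 2 Mesp1 UMIs among them in all. An embryoid body is an aggregate with no body axis, so its cells can be placed by their RNA but not by position.

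Gastrulation in the mouse begins when epiblast cells enter the primitive streak under Nodal, WNT, BMP and FGF signals, switch on the T-box genes T and Eomes, and leave the epithelium through the action of the repressor Snai1. Mesp1, a basic helix-loop-helix factor, is switched on briefly in the mesoderm that has just left the streak, and its descendants form the heart and much of the cranial and lateral mesoderm. Kdr encodes the VEGF receptor FLK1, which mesoderm with the potential to form blood, endothelium and heart muscle acquires at about the same time, while Sox17 marks definitive endoderm and, later, endothelium.

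Mesp1 lies on chromosome 7 at 79792241 to 79793788 on the minus strand (GRCm38, ENSMUSG00000030544, protein-coding), and its paralog Mesp2 lies at 79810727 to 79813439 on the plus strand, with 16938 bases between them. Because Mesp1 chose the cells, its upstream sequence is shown for the motifs of the factors named above. The 250 bases before the RefSeq start were searched on both strands for the T-box half-site AGGTGT, which T and Eomes can bind, and for the TCF/LEF core CTTTGA, the motif of WNT signalling. The RefSeq start used for this window lies inside the gene span printed above, so both TCF/LEF matches fall within that span and the T-box match lies outside it. The window held 3 matches, given in windows of 30 bases on the minus strand with the match in capitals.
T-box half-site, 233 to 228 bases before the start, chr7:79793806-79793835: cctaataaatgaAGGTGTaccctaagccta
TCF/LEF core on the reverse strand, 72 to 67 bases before the start, chr7:79793645-79793674: ccctgctatggtTCAAAGggttcaggccct
TCF/LEF core, 31 to 26 bases before the start, chr7:79793604-79793633: ggctcgagccggCTTTGAtatgctgatgaa
Of 32851 RefSeq promoters (GRCm38.p6), 11.83% held the half-site and 13.83% held the core in a window of the same length, on either strand. The same window of Snai1, Mesp2, Dll3 and Lhx1, the genes most like Mesp1 below, held 0 matches. A match describes letters in this window and is not a measured site.

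The EB library held 73915225 UMIs, and the 334 cells held 8865817 of them. They had 6989 to 65307 UMIs each with a median of 25658, against 29637 in Kdr-positive Mesp1-high cells and 25541 in all other EB cells. The median share of mitochondrial UMIs was 2.85% in Kdr-negative Mesp1-high cells, 2.87% in Kdr-positive Mesp1-high cells and 2.85% in all other EB cells. A count of 0 allows a level of up to 117 CPM (3 counts of the total) in a cell of the group's median depth, so a Kdr-negative cell is one in which Kdr was not seen, not one shown to lack it. With 1 library there are no replicates. Levels are therefore UMIs summed over cells in CPM, with 95% intervals (exact Poisson for levels, exact conditional binomial for ratios, Clopper-Pearson for shares) that cover counting error only, and no p-value is given. A gene is called higher or lower at a ratio of 2-fold or more, with at least 20 CPM in the higher group and 30 UMIs over both. By that limit 0.271% of all genes compared were higher and 1.08% lower than in all other EB cells. Against Kdr-positive Mesp1-high cells the shares were 0.84% and 0.609%. They are the background for counts of list genes in these comparisons, and a short list with 0 genes past 2-fold lies near them.

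The cells were chosen by their measured Kdr, Sox17 and Mesp1 values, which are therefore given as a description. Mesp1 ran from 502 to 4538 CPM per cell with a median of 1153, which was 4 to 126 UMIs with a median of 30. The 13 cells just inside the limit, at 500 to 550 CPM, had a median of 522 CPM, and the 17 EB cells just outside it, at 450 to 500 CPM with Kdr and Sox17 also at 0, had a median of 483 CPM. The limit therefore cut through a continuous range. Of the remaining Mesp1-high cells 85 had 1 Kdr UMI, and 15 had 0 Kdr UMIs with Sox17 seen. An average empty droplet held 252 UMIs, 0.987% of a median cell, and 0.105 Mesp1 UMIs, against the median of 30 in the group.

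Of the 4 proposed markers Mesp1 chose the cells. The other 3 had ratios above 1 over all other EB cells, with Snai1 alone past 2-fold, and ratios below 1 over Kdr-positive Mesp1-high cells. Snai1, the repressor of epithelial genes (chromosome 2, 167538195 to 167542814, plus strand), stood at 118 CPM in Kdr-negative Mesp1-high cells, 120.4 in Kdr-positive Mesp1-high cells and 50.4 in all other EB cells. Lhx1, a LIM homeobox factor of the streak and of early mesoderm (chromosome 11, 84518284 to 84525535, minus strand), was 83.8, 107 and 44.0 CPM in the same 3 groups. Lefty2, a secreted inhibitor of Nodal (chromosome 1, 180893108 to 180899103, plus strand), was 96.3, 112 and 62.7 CPM. Over all other EB cells the ratios were 2.35 for Snai1 (2.18 to 2.53), 1.90 for Lhx1 (1.75 to 2.07) and 1.54 for Lefty2 (1.42 to 1.66). Over Kdr-positive Mesp1-high cells they were 0.982 (0.892 to 1.08), 0.781 (0.702 to 0.870) and 0.860 (0.776 to 0.953). Mesp1 itself, which chose the cells, was 1316, 1136 and 322 CPM.

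Cell by cell the markers were unevenly seen. Snai1 ran from 0 to 481 CPM with a median of 104 in Kdr-negative Mesp1-high cells, from 0 to 447 with a median of 89.1 in Kdr-positive Mesp1-high cells, and from 0 to 567 with a median of 0 in all other EB cells. At least 1 Snai1 UMI was seen in 84.1% of the 334 cells (79.8 to 87.9) and in 87.8% of Kdr-positive Mesp1-high cells. Among the 294 EB cells with Kdr, Sox17 and Mesp1 all at 0, with a median of 23373.5 UMIs, the share was 21.4%, and free RNA alone would give 1.38%. Lefty2 had a median of 0 CPM and a highest value of 2410 CPM, and 5 cells held 28.3% of its UMIs. It was seen in 44.0% of the group (38.6 to 49.5), so as a marker it described a minority of the cells. Lefty1 and Lefty2 are close in sequence, as are Mesp1 and Mesp2 over part of their length, and how reads matching more than 1 gene were counted is not given in the sources used here.

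**Figure D1:**
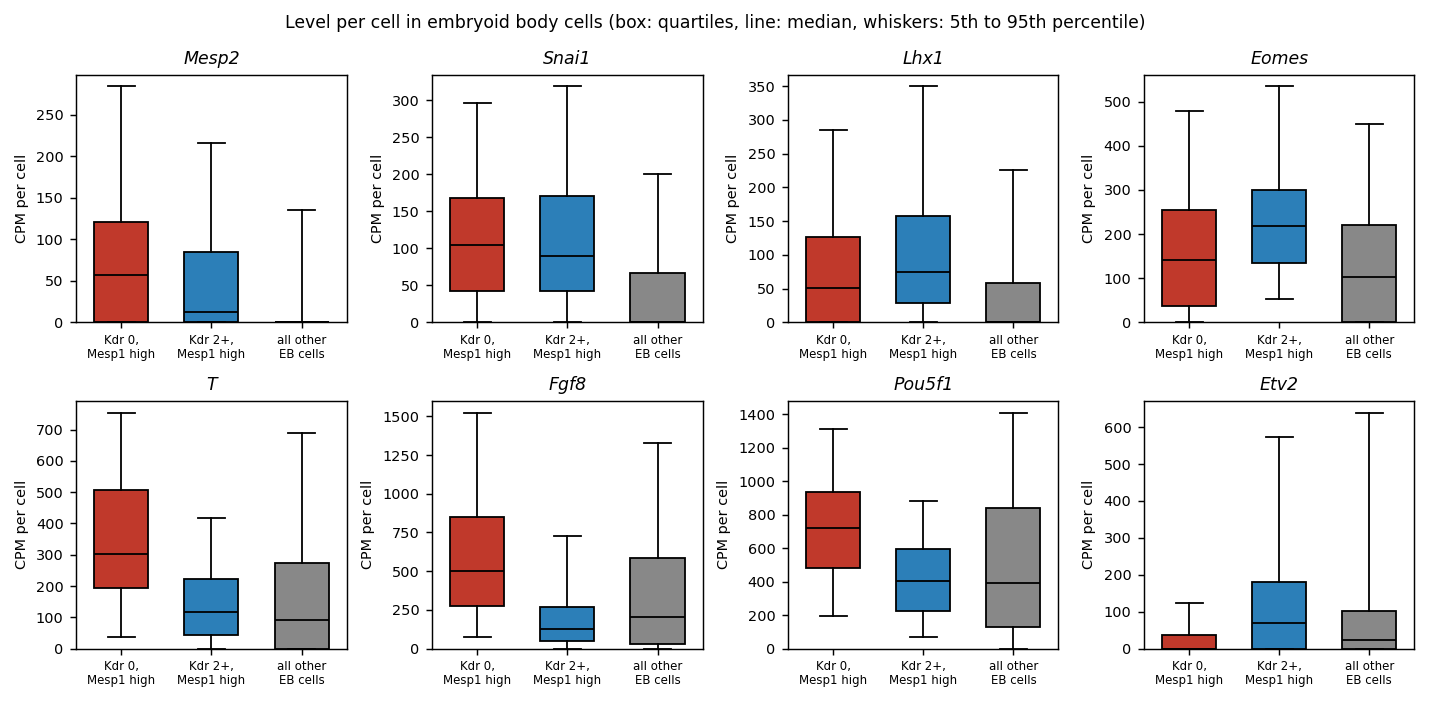
Level per cell in CPM (y axes) of 8 genes in 334 Kdr-negative Mesp1-high cells (red), 180 Kdr-positive Mesp1-high cells (blue) and 1544 other EB cells (grey), with the box at the quartiles, the line at the median and whiskers at the 5th and 95th percentiles. Snai1 is alike in both Mesp1-high groups (medians 104 and 89.1 CPM), T and Fgf8 are highest in Kdr-negative cells, and all groups overlap.

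Of 11 transcription factors of the streak and of nascent mesoderm 9 passed the minimum level against all other EB cells. All 9 were higher in Kdr-negative Mesp1-high cells, with a median log2 ratio of 0.88 (median of all 4800 genes compared, -0.01). At least 2-fold higher were 2 of them, against 0.271% of the 4800 genes. Mesp2, the paralog of Mesp1 that acts in somite formation, differed most, at 88.1 CPM against 21.1 CPM in all other EB cells, a ratio of 4.18 (3.79 to 4.60). It had a median of 57.4 CPM per cell and was seen in 65.9% of Kdr-negative Mesp1-high cells, against a median of 0 and 21% in all other EB cells. Sp5, a zinc finger target of WNT signalling, was 195 CPM against 105 CPM in all other EB cells. Evx1, a homeobox factor of the posterior streak, was 91.5 CPM against 64.0 CPM in all other EB cells. The presomitic mesoderm factors were low. Tbx6 was 18.0 CPM against 6.79 CPM in all other EB cells, under the minimum level, and Msgn1 had 7 UMIs in the 334 cells.

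Against Kdr-positive Mesp1-high cells the same factors split. T, the founding T-box gene of the streak, was 353 CPM in Kdr-negative Mesp1-high cells, against 155 CPM in Kdr-positive Mesp1-high cells, a ratio of 2.27 (2.11 to 2.45). T per cell ran from 0 to 1365 CPM with a median of 301 in Kdr-negative cells, and from 0 to 823 with a median of 116 in Kdr-positive cells. Eomes, the other T-box gene of the streak, was lower, at 172 CPM against 228 CPM in Kdr-positive Mesp1-high cells (ratio 0.754, 0.70 to 0.812). The homeobox gene Mixl1 was lower as well, at 220.5 CPM against 300.4 CPM (ratio 0.734, 0.688 to 0.783). Mesp2 was 88.1 CPM against 52.8 CPM, while Evx1 and Sp5 had ratios of 0.997 and 1.08. Of 9 factors that passed the minimum 1 was at least 2-fold higher and 0 were 2-fold lower, with a median log2 ratio of -0.005. Eomes was also seen in more of the Kdr-positive cells, with at least 1 UMI in 98.3% of them, against 78.7% of Kdr-negative Mesp1-high cells. Depth was not equalised for these shares, and the medians were 29637 and 25658 UMIs.

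Of 4800 genes compared with all other EB cells, leaving out the 3 genes of the rule, 13 were at least 2-fold higher in Kdr-negative Mesp1-high cells (0.271%) and 52 at least 2-fold lower (1.08%). The contrast is the one that chose the cells, so these shares are a description. The higher genes with the largest ratios at 100 CPM or more were Gas1, a membrane protein that binds Hedgehog ligands (143 CPM against 60 CPM in all other EB cells), Snai1, the Notch pathway ligand Dll3 (150.4 against 68.9), Fst, which encodes the activin-binding protein follistatin (304 against 144), and the ephrin ligand Efna3 (109 against 52.3). The next included Sp5, T, the kinase gene Sgk1, Fgf8, Smc6 and the WNT-potentiating R-spondin gene Rspo3, with ratios of 1.85 down to 1.56. Gas1 was seen in 78.4% of Kdr-negative Mesp1-high cells and 51.2% of all other EB cells.

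Trh, the thyrotropin-releasing hormone precursor, was 30.0 CPM in Kdr-negative Mesp1-high cells against 204 CPM in all other EB cells (ratio 0.147, 0.130 to 0.166). Mest was 43.5 CPM against 198 CPM, and Etv2, the ETS factor that commits mesoderm to blood and endothelium, was 32.6 CPM against 129 CPM. The keratin genes Krt18 and Krt8 had ratios of 0.375 and 0.513. Ppic, Slc2a3 (a glucose transporter), Apoe, Igfbp4, Pmp22, Amot and Bambi had ratios of 0.386 to 0.519. Trh in the group came largely from few cells, since 5 cells held 52.3% of its UMIs.

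Of 4764 genes compared with Kdr-positive Mesp1-high cells, leaving out Kdr and the rule's other genes, 40 were at least 2-fold higher in Kdr-negative cells (0.84%) and 29 at least 2-fold lower (0.609%). Fgf8, a ligand needed for cells to move away from the streak, led the genes at 100 CPM or more, at 604 CPM in Kdr-negative Mesp1-high cells against 216 CPM in Kdr-positive Mesp1-high cells (ratio 2.79, 2.62 to 2.97). Fgf8 per cell had a median of 498 CPM and a highest value of 2625 CPM in Kdr-negative cells, and a median of 126 CPM and a highest value of 1039 CPM in Kdr-positive cells. Psmb8, an immunoproteasome subunit gene (104 CPM against 40.7 CPM), the kinase gene Pim2, T and Fst (304 against 144) came next in ratio. Tspan13, Stmn2, BC023829, Bex1, Sgk1, Hspb1 and Psmb10 followed with ratios of 1.98 down to 1.79. Etv2 was the lowest in ratio among genes at this level, at 32.6 CPM against 141 CPM in Kdr-positive cells (ratio 0.231, 0.202 to 0.265). Etv2 was seen in 37.4% of Kdr-negative Mesp1-high cells (32.2 to 42.9), against 73.9% of Kdr-positive Mesp1-high cells, at depths that were not equalised. Free RNA alone would give 2.96%. Hmga2, a chromatin protein gene of early development, was 131 CPM against 281 CPM, and Fn1, which encodes the matrix protein fibronectin, was 631 CPM against 1060.1 CPM. Ppic, Mpc2, Igfbp4, Pmp22, Fgf3, Actn1, Amot, Gpc3 and Aplp2 had ratios of 0.390 to 0.643. The counts depend on the Kdr limit of the comparison cells, with 64 higher and 50 lower against cells with at least 4 Kdr UMIs, and 24 higher against cells with at least 1. Without the 5% of EB cells that had the most UMIs, 44 genes were lower. With every cell thinned to 6000 UMIs and the groups chosen anew, 178 were higher and 269 lower, with 56 Kdr-positive Mesp1-high cells left.

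**Figure D2:**
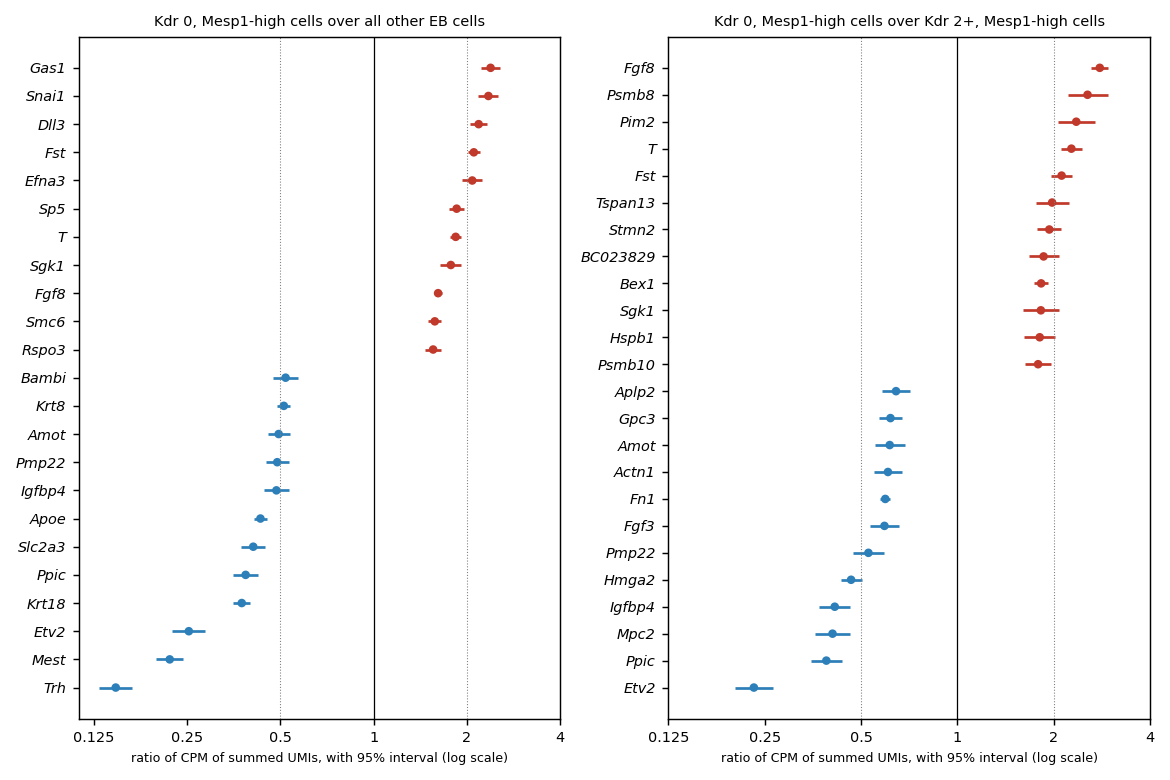
Ratio of CPM of summed UMIs (x axis, log scale) in Kdr-negative Mesp1-high cells over all other EB cells (left) and over Kdr-positive Mesp1-high cells (right), for genes of the 12 largest ratios in each direction at 100 CPM or more (11 of the 12 higher genes are drawn on the left). Points are ratios, lines 95% intervals for counting error, red is higher and blue lower, and dotted lines mark 2-fold. T, Fgf8, Fst and Sgk1 are among the higher genes on both sides, and Etv2 is among the lowest on both.

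Nodal signalling was represented mainly by its co-receptor. Tdgf1, which encodes the co-receptor Cripto, was 921 CPM in Kdr-negative Mesp1-high cells, 1051 CPM in Kdr-positive Mesp1-high cells and 595 CPM in all other EB cells. The second co-receptor gene, Cfc1, was 59.0, 57.9 and 79.3 CPM in the same order, and the activin receptor gene Acvr2b 105, 105 and 90.0 CPM. The ligand gene Nodal itself was low, at 6.20 CPM against 3.75 CPM in Kdr-positive Mesp1-high cells and 9.75 CPM in all other EB cells. The related ligand Gdf3 was 1.80, 0.851 and 10.4 CPM, and Gdf1 had 0 UMIs. The receptors Acvr1b and Acvr2a (5.19 and 6.77 CPM) and the transducers Smad2, Smad3, Smad4 and Foxh1 (15.5, 4.96, 31.5 and 1.69 CPM) had ratios over all other EB cells between 0.778 and 1.44, and the interval of each of the 6 included 1.

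Of 12 Nodal ligands, receptors and transducers 4 passed the minimum level against all other EB cells and 5 against Kdr-positive Mesp1-high cells. In either comparison 0 were 2-fold higher or lower. Among Nodal targets and inhibitors the homeobox gene Gsc (48.5, 51.4 and 38.7 CPM) differed by less than 2-fold between Kdr-negative Mesp1-high cells, Kdr-positive Mesp1-high cells and all other EB cells. Lefty1, a Nodal inhibitor of the epiblast, was the member of the 6 past 2-fold in each comparison, where 5 passed the minimum. It was 24.3 CPM in Kdr-negative Mesp1-high cells against 3.58 CPM in Kdr-positive Mesp1-high cells (ratio 6.78, 4.33 to 11.2) and against 61.6 CPM in all other EB cells (ratio 0.394, 0.341 to 0.453). Lefty1 was seen in 17.4% of Kdr-negative Mesp1-high cells, and 5 cells held 40.0% of its UMIs. The inhibitor Cer1 had 18 UMIs in the group.

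Of 15 FGF ligands, receptors and targets 10 passed the minimum against Kdr-positive Mesp1-high cells, 2 of them at least 2-fold higher (Fgf8 and Fgf5) and 1 at least 2-fold lower (Fgf10), with a median log2 ratio of 0.18. Fgf5, an epiblast ligand, was 73.0 CPM in Kdr-negative Mesp1-high cells against 32.0 CPM in Kdr-positive Mesp1-high cells, and Fgf10 was 10.9 CPM against 35.6 CPM. Fgf3 was also lower, at 75.9 CPM against 128 CPM. Against all other EB cells 10 passed, with 0 2-fold higher, 1 lower (Fgf10) and a median of 0.10. Fgf4 was highest in ratio there, at 15.2 CPM against 3.18 CPM in all other EB cells, under the minimum level. Fgf15 was 35.1 CPM against 17.6 CPM, and the receptor gene Fgfr2 1.69 CPM against 3.71 CPM in all other EB cells.

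Most BMP genes that passed the minimum had ratios below 1. Of 17 BMP ligands, receptors, targets and inhibitors 10 passed the minimum in each comparison. Against all other EB cells 1 was 2-fold higher and 1 lower, with a median log2 ratio of -0.44 (all genes compared, -0.01). Against Kdr-positive Mesp1-high cells 1 was higher and 1 lower, with a median of -0.29 (all genes compared, -0.001). In both the higher gene was Fst and the lower one the ligand Bmp4, at 23.2 CPM in Kdr-negative Mesp1-high cells, 49.9 CPM in Kdr-positive Mesp1-high cells and 69.2 CPM in all other EB cells. Id1, a target of BMP signalling, went against the median, at 650 CPM, 477 CPM and 439 CPM. The ligand Bmp2 was 2.59 CPM against 12 CPM in all other EB cells, and the ligand Bmp5 had 3 UMIs in the group.

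Among WNT genes, 9 of 15 passed the minimum in each comparison, and 1 was 2-fold lower in each, the inhibitor Dkk1, at 21.7 CPM in Kdr-negative Mesp1-high cells, 58.8 CPM in Kdr-positive Mesp1-high cells and 54.5 CPM in all other EB cells. The median log2 ratio was 0.31 over all other EB cells and -0.03 over Kdr-positive Mesp1-high cells. Lef1, a nuclear partner of beta-catenin, was 91.7 CPM against 48.6 CPM in all other EB cells. The ligand Wnt3a had 18 UMIs and the inhibitor Sfrp5 3 UMIs in the group. Of 10 Notch genes 5 passed, with Dll3 2-fold higher than in all other EB cells, and 0 of the 5 past 2-fold against Kdr-positive Mesp1-high cells. Notch1 was 31.0 CPM against 15.7 CPM in all other EB cells, while the target gene Hes1 was 126 CPM against 128 CPM. Lfng was 12.5 CPM against 5.33 CPM, Notch3 16.1 CPM against 24.9 CPM and Notch2 11.3 CPM against 15.9 CPM in all other EB cells. Of 9 retinoic acid genes 3 passed in each comparison and 0 were past 2-fold. Cyp26a1, which degrades retinoic acid, was 290.4 CPM against 419 CPM in Kdr-positive Mesp1-high cells and 226 CPM in all other EB cells. Aldh1a2, Dhrs3 and Rara had 19, 22 and 94 UMIs in the group, and Rarb had 0.

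Epithelial genes lay between the comparison groups. Of 10 such genes 6 passed the minimum against all other EB cells. All 6 were lower in Kdr-negative Mesp1-high cells, 3 at least 2-fold (the claudins Cldn6 and Cldn7, and Krt18), with a median log2 ratio of -1.03. Of all genes compared there 1.08% were 2-fold lower, and their median log2 ratio was -0.01. Against Kdr-positive Mesp1-high cells 5 passed and all 5 were higher, 2 at least 2-fold (Cldn6 and Cldn7), with a median of 0.97. Of all genes in that comparison 0.84% were 2-fold higher, with a median of -0.001. Epcam, an epithelial adhesion gene, was 97.1 CPM in Kdr-negative Mesp1-high cells, 49.6 CPM in Kdr-positive Mesp1-high cells and 125 CPM in all other EB cells. Cdh1, which encodes E-cadherin and is repressed by Snai1, was 18.0, 6.64 and 23.5 CPM. Cdh1 was seen in 30.8% of Kdr-negative Mesp1-high cells and in 14.4% of Kdr-positive Mesp1-high cells. The splicing factor gene Esrp1 was 12.7 CPM against 11.7 CPM in all other EB cells, and Cldn4 and Ocln had 6 and 2 UMIs in the group. Of 10 mesenchymal genes 7 passed in each comparison. Only Snai1 was past 2-fold, over all other EB cells, and the median was 0.08 there and -0.41 over Kdr-positive Mesp1-high cells. Cdh2, which encodes N-cadherin, was 76.1 CPM in Kdr-negative Mesp1-high cells, 101 CPM in Kdr-positive Mesp1-high cells and 63.7 CPM in all other EB cells. Twist1, Zeb1 and Snai2 had 84, 41 and 4 UMIs in the group.

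Pou5f1, the factor OCT4, was 762 CPM in Kdr-negative Mesp1-high cells, 463 CPM in Kdr-positive Mesp1-high cells and 554 CPM in all other EB cells. It was seen in 99.1% of the 334 cells, with a median of 719 CPM. Nanog was 54.8, 24.7 and 48.7 CPM. Sox2, which falls as epiblast cells become mesoderm, was low at 9.59 CPM, against 6.13 CPM in Kdr-positive Mesp1-high cells and 26.2 CPM in all other EB cells, and the epiblast gene Utf1 was 4.40, 3.24 and 40.1 CPM. Of 12 core pluripotency and epiblast genes 9 passed against all other EB cells, with 0 2-fold higher and 2 lower (Sox2 and Utf1). Zic2 was 14.7 CPM against 9.73 CPM in all other EB cells. Over Kdr-positive Mesp1-high cells 7 passed, with 3 higher (Fgf5, Nanog and L1td1) and 0 lower, and a median log2 ratio of 0.72. Of 10 naive pluripotency genes 4 passed against all other EB cells, 2 of them 2-fold lower (Klf2 and Tbx3), and Esrrb, Tfcp2l1 and Tcl1 had 0 UMIs in the group. Dppa5a was 547 CPM against 732 CPM in all other EB cells, and Klf4, Klf2 and Nr0b1 had 23, 23 and 2 UMIs in the group. In the comparison with Kdr-positive Mesp1-high cells 2 passed and Tbx3 was 2-fold lower, at 20.3 CPM against 68.3 CPM.

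Genes of hemangiogenic progenitors were low in the group. Of 10 such genes 2 passed the minimum in each comparison, Etv2 and Lmo2, and both were more than 2-fold lower in both. Lmo2, a cofactor of the blood factor TAL1, was 7.11 CPM in Kdr-negative Mesp1-high cells, 28.8 CPM in Kdr-positive Mesp1-high cells and 65.0 CPM in all other EB cells. Tal1 had 5 UMIs in the 334 cells, against 51 UMIs in the 180 Kdr-positive Mesp1-high cells. Fli1 had 1 UMI in the group, and Gata1, Erg and Sox7 had 0. Kdr at 0 was part of the rule, so the contrast with Kdr-positive cells is a description.

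Nrp1, a co-receptor gene for VEGF and semaphorins, had the lowest ratio in each comparison among genes that passed the minimum level, apart from genes of the rule. It had 10 UMIs in 7 of the 334 cells (2.10%, 0.847 to 4.27), or 1.13 CPM. In Kdr-positive Mesp1-high cells it was 30.1 CPM and was seen in 47.2% of cells (39.8 to 54.8), and in all other EB cells it was 33.7 CPM and was seen in 35.7%. The ratio was 0.0374 over Kdr-positive Mesp1-high cells (0.0176 to 0.0705) and 0.0335 over all other EB cells (0.016 to 0.0618). Kdr at 0 chose the cells and both comparison groups hold Kdr-positive cells, so these ratios are a description. Low Nrp1 was not particular to the group. In cells with Kdr and Sox17 also at 0 it was 5.63 CPM at 100 to 250 CPM of Mesp1. At 250 to 500 CPM of Mesp1 it was 4.08 CPM. Free RNA alone would give an Nrp1 UMI in 0.631% of cells. With every cell thinned to 6000 UMIs, Nrp1 was seen in 1.2% of Kdr-negative Mesp1-high cells, 15.0% of Kdr-positive Mesp1-high cells and 16.6% of all other EB cells. Its relative Nrp2 was 40.5 CPM against 67.8 CPM in Kdr-positive Mesp1-high cells and 55.8 CPM in all other EB cells. Of 7 VEGF receptors and ligands other than Kdr 3 passed in each comparison and Nrp1 alone was 2-fold lower. Vegfb was 52.6 CPM against 54.4 CPM in all other EB cells, and Vegfc had 14 UMIs in the group.

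Markers of other cell types were looked at as whole lists. Kdr and Sox17 at 0 were conditions of the rule, which by itself favours low definitive endoderm and endothelial genes. The levels of those genes in the group are therefore a description and not a check of the rule. Of 12 anterior streak and definitive endoderm genes 4 passed against all other EB cells and 1 was 2-fold lower (Trh), while Gsc and Otx2 had ratios of 1.25 and 1.19. Against Kdr-positive Mesp1-high cells 4 passed and 0 were past 2-fold. Foxa2, the defining endoderm factor, had 3 UMIs in the group, and Foxa1, Noto and Shh had 0. Of 10 endothelial genes 1 passed, Egfl7, at 50.5 CPM against 55.7 CPM in Kdr-positive Mesp1-high cells and 75.6 CPM in all other EB cells, and Cldn5 had 4 UMIs and Esam, Tek, Sox18 and Emcn had 0 in the group. Of 7 visceral endoderm genes only Apoe passed, at 220.4 CPM against 229.9 CPM in Kdr-positive Mesp1-high cells and 512 CPM in all other EB cells. Rhox5 and Apoa1 had 28 and 1 UMIs and Afp and Ttr 0. The summed level of 8 feeder fibroblast genes was 6.65 CPM in Kdr-negative Mesp1-high cells, 6.47 CPM in Kdr-positive Mesp1-high cells and 14.3 CPM in all other EB cells, and 6 erythroid genes had 0 UMIs in the group. The defining feeder genes Col1a1 and Thy1 had 21 and 10 UMIs, and Col3a1 and Postn 0. Of 8 germ cell genes 2 passed. Next to Kdr-positive Mesp1-high cells Dnd1, an RNA-binding protein gene, was 27.1 CPM against 13.5 CPM, and Ifitm3 was 284 CPM against 176 CPM, while Prdm1 had 21 UMIs in the group. Tfap2c, Prdm14, Nanos3 and Dppa3 had 120, 44, 8 and 3 UMIs.

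Among markers of mesoderm with a position or fate, some cardiac genes differed between the Mesp1-high groups and others did not. Of 14 cardiac and lateral mesoderm genes 7 passed against Kdr-positive Mesp1-high cells, with a median log2 ratio of -0.86. Of these 7, 3 were at least 2-fold lower (Myl7, Gata4 and Foxf1), and 2 had ratios above 1. Against all other EB cells 5 passed and 1 was lower (Myl7). Myl7, an atrial myosin light chain gene, was 4.40 CPM in Kdr-negative Mesp1-high cells against 71.0 CPM in Kdr-positive Mesp1-high cells (ratio 0.0619, 0.0434 to 0.0861) and 29.7 CPM in all other EB cells. In Kdr-positive Mesp1-high cells 47.0% of Myl7 UMIs came from 5 cells. Hand2 had 1 UMI in the group and 49 UMIs in Kdr-positive Mesp1-high cells. Pdgfra, a receptor gene of early mesoderm, was 21.7 CPM against 32.5 CPM in Kdr-positive Mesp1-high cells and 11.9 CPM in all other EB cells, and Isl1 was 26.5 CPM, 26.4 CPM and 15.3 CPM. Mef2c and Nkx2-5 had 13 and 3 UMIs in the group, and Gata5 had 0.

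Of 9 posterior Cdx and Hox genes 3 passed against Kdr-positive Mesp1-high cells and 1 was higher, the caudal homeobox gene Cdx2, at 39.9 CPM against 9.88 CPM (ratio 4.04, 3.06 to 5.43). Cdx2 was 36.6 CPM in all other EB cells. Against those cells 2 passed and 1 was higher, Hoxb1, at 37.1 CPM against 14.5 CPM. Cdx1 was 9.02 CPM against 4.73 CPM, and Hoxd1 and Hoxb9 had 8 and 1 UMIs in the group. Of 9 allantois and extraembryonic mesoderm genes, which include Cdx2, Bmp4 and Hand1, 4 passed against all other EB cells, with 2 lower (Bmp4 and Ahnak). With Kdr-positive Mesp1-high cells 3 passed, 1 of them higher (Cdx2) and 1 lower (Bmp4). Tbx4 and Hoxa11 had 0 UMIs in the group. Of 13 paraxial mesoderm genes Dll3 alone passed the minimum. The rest were low, with Dll1 at 11.7 CPM against 3.30 CPM in all other EB cells and Ripply2, Meox1 and Pax3 at 6, 2 and 1 UMIs in the group.

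Of 12 migration and guidance genes 11 were found by name, 8 passed against all other EB cells and 7 against Kdr-positive Mesp1-high cells. The ephrin receptor gene Epha1 was at least 2-fold higher in both, at 44.0 CPM in Kdr-negative Mesp1-high cells, 21.1 CPM in Kdr-positive Mesp1-high cells and 21 CPM in all other EB cells. Apln, the ligand of the apelin receptor, was 31.8, 11.9 and 17.7 CPM, and its receptor gene Aplnr 45.8, 50.4 and 29.0 CPM. Apln was also 2-fold higher over Kdr-positive Mesp1-high cells. Rgs5 was 2-fold lower than in all other EB cells. The chemokine receptor gene Cxcr4 was 4.96 CPM against 18.9 CPM in Kdr-positive Mesp1-high cells, under the minimum level, and its ligand gene Cxcl12 had 13 UMIs in the group.

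Cell cycle and stress genes differed little. Of 10 S phase genes 9 passed and of 10 G2 and M phase genes 10 passed, and 0 were past 2-fold in either comparison. These counts lie near the shares of all genes, which were 0.271% higher and 1.08% lower over all other EB cells. Over Kdr-positive Mesp1-high cells the shares were 0.84% and 0.609%. The summed S phase level was 1026 CPM in Kdr-negative Mesp1-high cells, 925 CPM in Kdr-positive Mesp1-high cells and 954 CPM in all other EB cells, and the G2 and M phase level 2097, 2234 and 1999.9 CPM. Over all other EB cells the S phase ratios lay between 0.931 for Cdc6 and 1.2 for Mcm5, with Slbp at 0.998 and Mcm3 at 1.16. The G2 and M phase ratios lay between 0.988 for Aurka and 1.19 for Plk1, with Mki67 at 0.999 and Cenpf at 1.14. Of 9 dissociation and heat shock genes 3 passed, with 0 past 2-fold, also near those shares. Their summed level was 199 CPM in Kdr-negative Mesp1-high cells, 208 CPM in Kdr-positive Mesp1-high cells and 234 CPM in all other EB cells. Hspa1a, Atf3 and Hspa1b had 42, 17 and 1 UMIs in the group and Fosb 0.

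How the group relates to the cells below its Mesp1 limit was followed in the 935 EB cells with Kdr and Sox17 at 0, divided by Mesp1 level. They held 294 cells at 0 CPM, 117 above 0 to 100, 93 at 100 to 250, 97 at 250 to 500, 136 at 500 to 1000, 155 at 1000 to 2000 and 43 at 2000 CPM and more. The last 3 bins are the 334 cells. The median depth was 23373.5 UMIs in the lowest bin and 28919 in the highest. The bins were set by Mesp1, so they order the cells and carry no test.

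Several genes climbed along this order, and others given in the same bins did not. Mesp2 was 3.09, 4.67, 19.1, 43.7, 53.0, 107 and 123 CPM from the lowest Mesp1 bin to the highest. Snai1 was 11.8, 24.8, 39.9, 80.0, 88.2, 129.5 and 164 CPM, and Lhx1 was 6.88 CPM in the lowest bin and 94.7 CPM in the highest. Dll3 reached 111 CPM already at 100 to 250 CPM of Mesp1, and Gas1 kept climbing to 203 CPM. Eomes was 78.7 CPM in the lowest bin and 197 CPM in the highest, and Tdgf1 463 CPM and 951 CPM. Fst was 181, 251, 335, 278, 280, 314 and 342 CPM, near its highest level already at 100 to 250 CPM of Mesp1. Lefty2 was 52.1, 53.7, 95.8, 53.9, 85.9, 93.5 and 136 CPM, without a steady climb. Hand1 was 84.5, 116, 108, 138, 147, 102 and 93.0 CPM, highest in the middle of the order. Etv2 was 36.9 CPM in the lowest bin and 46.9 CPM in the highest, with 80.8 CPM at 250 to 500 CPM of Mesp1, and Tbx6 was 23.7 CPM at 1000 to 2000 CPM of Mesp1 and 11.5 CPM in the highest bin.

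Fgf8, T, Cdx2, Lefty1 and Nodal did not climb with Mesp1 in this way. Fgf8 was 397, 543, 899, 745, 661, 577 and 538 CPM, highest at 100 to 250 CPM of Mesp1. T was 236, 303, 439, 363, 349, 349 and 379 CPM, with its highest level in the same bin, and Cdx2 also peaked there at 98.8 CPM. Lefty1 was 119, 89.7, 134, 44.9, 39.0, 14.7 and 15.6 CPM, so within the group it was highest in its lowest bin. Nodal was 20.2 CPM in the lowest bin and 6.59 CPM in the highest.

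Utf1, Sox2, Krt18 and Epcam ran the other way. Utf1 was 143, 82.9, 8.23, 9.79, 9.02, 1.42 and 1.65 CPM, and Sox2 was 71.6 CPM in the lowest bin and 4.12 CPM in the highest. Krt18 was 393 CPM and 87.3 CPM, and Epcam 231 CPM and 92.2 CPM in those bins. The epiblast genes Fgf5 and Pou5f1 did not follow. Fgf5 was 82.2, 74.5, 106, 67.7, 72.2, 72.8 and 75.7 CPM, and Pou5f1 was 934, 894, 870.2, 731, 705, 771 and 894 CPM. Nrp1 was 12.4 CPM at 0 Mesp1 and 1.65 CPM in the highest bin, below its level in Kdr-positive Mesp1-high cells throughout.

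**Figure D3:**
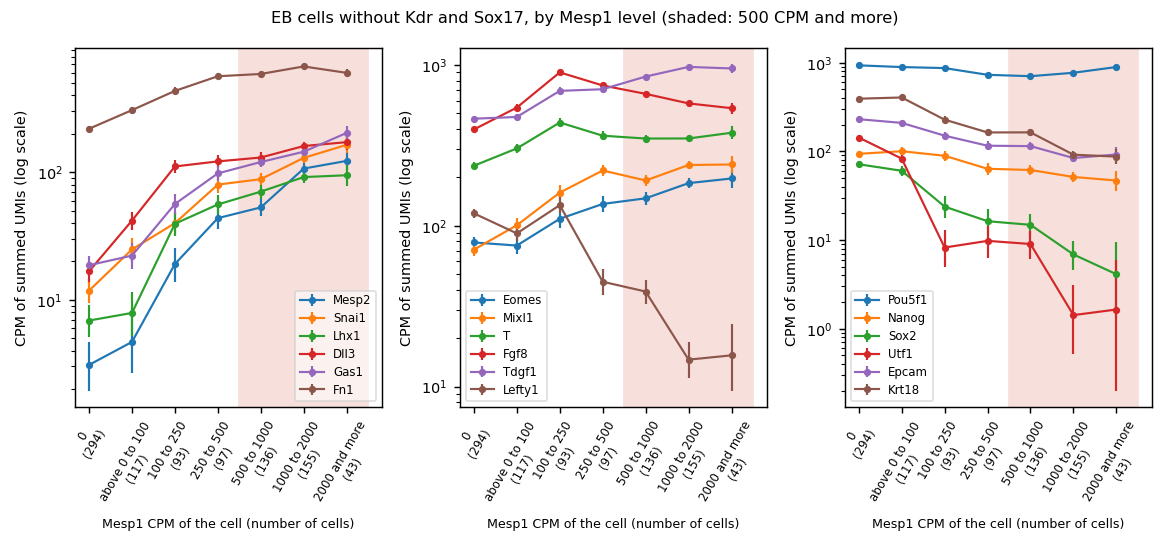
CPM of summed UMIs (y axes, log scale) in 935 EB cells with Kdr and Sox17 at 0, divided into 7 bins by Mesp1 CPM (x axes, number of cells in brackets), with 95% Poisson intervals. The shaded bins are the 334 Kdr-negative Mesp1-high cells. Snai1 climbs to 164 CPM and Mesp2 to 123 CPM, Fgf8 and T are highest at 100 to 250 CPM of Mesp1, Utf1 and Sox2 are at 1.65 and 4.12 CPM in the last bin, and Pou5f1 ends at 894 CPM.

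Over the 935 cells, among 6800 genes seen in at least 20% of them, the genes whose CPM followed Mesp1 most closely were Snai1 (Spearman rho 0.623), Mesp2 (0.577), Dll3 (0.575), Lhx1 (0.543), Gas1 (0.519), Efna3 (0.516), Fn1 (0.506), Cyp26a1 (0.489), Ypel3 (0.478) and Dlc1 (0.475). The lowest were Utf1 (-0.475), the ubiquitin ligase gene Mkrn1 (-0.430), Apoe (-0.413), Slc2a3 (-0.409) and Sox2 (-0.409). These are descriptions over cells of 1 library that share depth and capture, and carry no p-value. The correlation of the same 15 genes with the cell's total UMIs was between -0.18 for Fn1 and 0.14 for Sox2. Within the 334 cells alone the correlations were lower, with 0.305 for Snai1, 0.257 for Mesp2, 0.204 for Dlc1 and 0.189 for Dll3, and 0.065 for Fn1.

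How the group relates to the cells above its Kdr limit was followed in the Mesp1-high cells without Sox17, divided by Kdr UMIs. There were 334 at 0 UMIs, 82 at 1, 87 at 2 to 3, 41 at 4 to 5 and 46 at 6 and more. Depth moved with these classes, with median UMIs of 25658, 25755.5, 28903, 28179 and 37782.5, and its part in the differences was not tested.

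T, Fgf8, Fst and Pou5f1 were lower at each step. T was 353, 212, 182, 171 and 93.6 CPM from 0 Kdr UMIs to 6 and more, and Fgf8 was 604, 383, 262, 219 and 142 CPM. Fst was 304, 207, 179, 133 and 91.2 CPM. Pou5f1 was 762, 641, 543, 420 and 323 CPM, and Nanog was 54.8 CPM at 0 UMIs and 9.0 CPM at 6 and more. The 82 cells with 1 Kdr UMI were intermediate for T, Fgf8, Fst and Pou5f1.

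Other genes, streak factors among them, were higher with Kdr. Eomes was 172, 187, 192, 247 and 269 CPM. Mixl1 was 220.5, 269.7, 317, 274 and 293 CPM, above its level at 0 UMIs in every class. Lhx1 was 83.8, 109, 86.9, 144 and 119.98 CPM, without a steady direction. At 2 to 3 Kdr UMIs the interval of Lhx1 (76.0 to 99.0) included its level at 0 UMIs. Fn1 was 631, 800.5, 907, 1097 and 1329.9 CPM, and Hmga2 131, 206, 238, 301 and 354.5 CPM. Phlda2, an imprinted gene of extraembryonic tissues, was 1205 CPM at 0 UMIs and 2017 CPM at 6 and more. Etv2 was 32.6, 96.7, 138, 118 and 166 CPM. Lmo2 was 7.11 CPM and 47.4 CPM at the ends of the series, and Nrp1 1.13, 11.6, 20, 24.3 and 54.6 CPM. Mesp1 was 1316, 1325, 1118, 1170 and 1142 CPM, and Snai1 118, 152, 132, 107 and 117 CPM, without a steady direction.

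**Figure D4:**
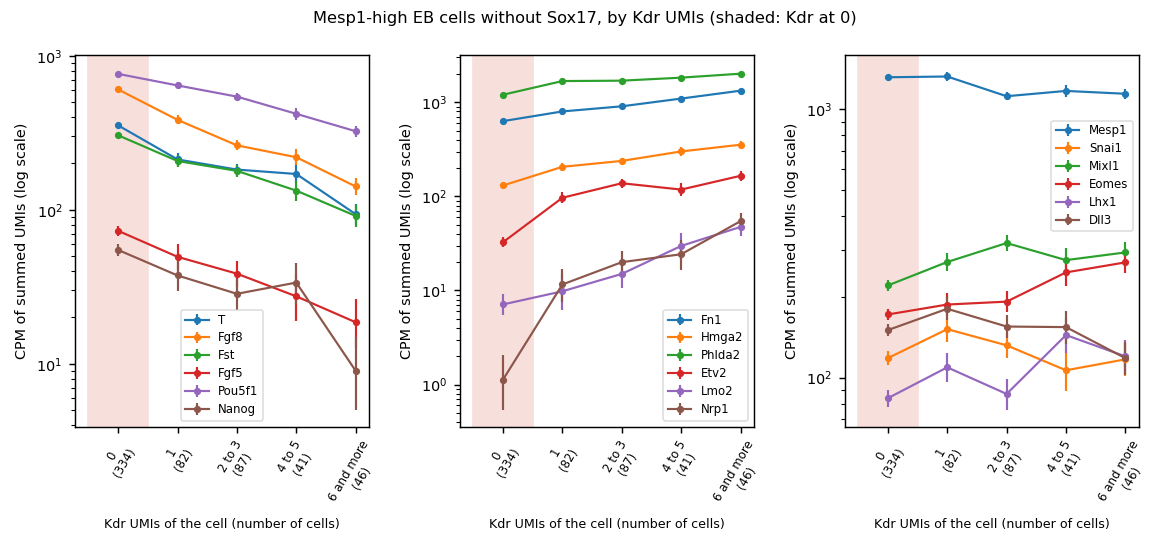
CPM of summed UMIs (y axes, log scale) in Mesp1-high EB cells without Sox17, divided by Kdr UMIs of the cell (x axes, number of cells in brackets), with 95% Poisson intervals. The shaded class is the 334 Kdr-negative Mesp1-high cells. T (353 to 93.6 CPM) and Fgf8 (604 to 142 CPM) descend, Fn1 and Hmga2 climb, and Mesp1 and Snai1 show no steady direction.

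The group was not uniform. Hand1, a basic helix-loop-helix factor of lateral and extraembryonic mesoderm, was seen in 51.2% of Kdr-negative Mesp1-high cells with a highest level of 1401 CPM, and its sum was 118 CPM, against 116 CPM in Kdr-positive Mesp1-high cells and 143 CPM in all other EB cells. The cells were therefore divided into 127 with at least 2 Hand1 UMIs (38.0%), 44 with 1 UMI and 163 with 0 UMIs (48.8%), a division chosen after the values were seen. Median depth was 26321 UMIs with Hand1 at 2 or more and 25649 UMIs at 0. Mesp1 was 1298 CPM in the Hand1-positive cells and 1344 CPM in the Hand1-negative cells (ratio 0.966, 0.929 to 1.0). Eomes was seen at 2 or more UMIs in 52.0% of the Hand1-positive cells and 82.2% of the Hand1-negative cells. Both genes at 2 or more UMIs were found in 66 of the 334 cells (19.8%), Eomes alone in 165, Hand1 alone in 61 and neither in 42.

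Of 4811 genes compared between the Hand1-positive and Hand1-negative cells, 48 were at least 2-fold higher (0.998%) and 27 at least 2-fold lower (0.561%). Of 9 BMP genes that passed 5 were higher (Bmp4, Msx2, Id2, Bambi and Msx1) and 0 lower, with a median log2 ratio of 1.13. Bmp4 was 48.6 CPM in Hand1-positive cells against 4.74 CPM in Hand1-negative cells (ratio 10.3, 6.44 to 17.2). The homeobox target Msx2 was 140.4 CPM against 40.7 CPM, and Id2 was 44.9 CPM against 13.3 CPM. Of 4 cardiac and lateral mesoderm genes that passed, 2 were higher (Foxf1 and Isl1) and 1 lower (Gata6). Of 3 posterior Cdx and Hox genes 2 were higher (Cdx2 and Hoxb2). Foxf1, a factor of lateral and extraembryonic mesoderm, was 21.5 CPM against 2.60 CPM, Isl1 was 43.8 CPM against 13.5 CPM and Cdx2 was 61.3 CPM against 19.7 CPM. Phlda2 was 2029.9 CPM against 607 CPM (ratio 3.34, 3.19 to 3.5), Pmp22 135 CPM against 20.8 CPM, and the cell cycle inhibitor gene Cdkn1c 282 CPM against 127 CPM.

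The lower genes included Nodal targets and genes of the anterior streak and epiblast. Of 5 Nodal targets and inhibitors 4 were 2-fold lower in Hand1-positive cells (Lefty1, Lefty2, Gsc and Lhx1), with a median log2 ratio of -1.10. Of 4 anterior streak and definitive endoderm genes 3 were lower (Otx2, Gata6 and Gsc), and of 8 core pluripotency and epiblast genes 4 were. Lefty2 was 42.7 CPM in Hand1-positive cells against 152 CPM in Hand1-negative cells (ratio 0.280, 0.233 to 0.335), and Lhx1 was 52.3 CPM against 110.1 CPM. Otx2, a head and epiblast homeobox factor, was 13.6 CPM against 57.3 CPM, Fgf5 was 25.7 CPM against 118 CPM and Sp5 was 91.3 CPM against 268 CPM. Of 9 streak factors 3 were lower (Sp5, Eomes and Lhx1). Gas1, first in ratio over all other EB cells at 100 CPM or more, was 70.4 CPM against 195 CPM. Lefty2 and Lhx1, proposed as markers of the whole group, were thus higher in its Hand1-negative cells.

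The same division of Kdr-positive Mesp1-high cells gave 101 cells with Hand1 at 2 or more UMIs and 49 at 0, with median depths of 32959 and 27428 UMIs. Bmp4 had a ratio of 3.27 there (2.19 to 5.06), Foxf1 5.70, Msx2 2.21, Lefty2 0.371 and Lhx1 0.495. Phlda2 had a ratio of 1.43 (1.36 to 1.5), Gas1 0.935 (0.775 to 1.13), Fst 0.985 (0.832 to 1.17) and Eomes 0.872 (0.767 to 0.994), where the Kdr-negative cells had 3.34, 0.360, 0.510 and 0.467. The genes were picked by their values in the Kdr-negative cells, which by itself favours ratios nearer to 1 in the Kdr-positive cells. Whether the 2 sets of ratios differ was not tested.

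**Figure D5:**
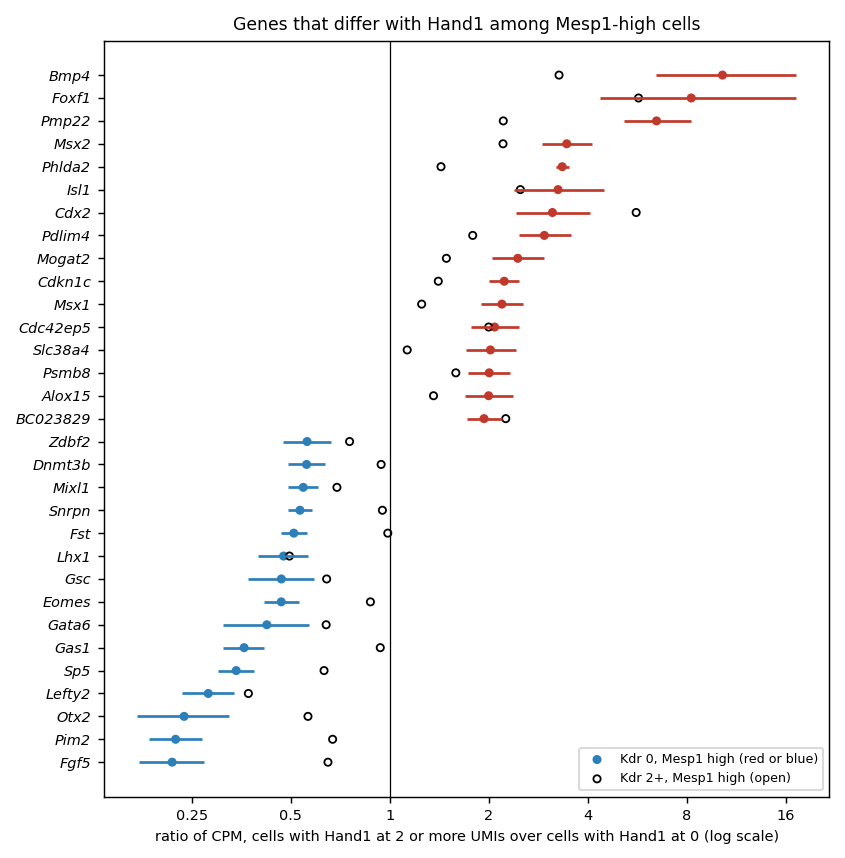
Ratio of CPM in cells with Hand1 at 2 or more UMIs over cells with Hand1 at 0 (x axis, log scale). Drawn are the leading genes in each direction among Kdr-negative Mesp1-high cells, and list genes chosen after their values were seen. Filled points with 95% intervals are the Kdr-negative Mesp1-high cells (127 against 163 cells, red above 1 and blue below), and open points are the Kdr-positive Mesp1-high cells (101 against 49 cells). Bmp4 lies at 10.3 and Fgf5 at 0.218 in Kdr-negative cells, and most open points lie nearer to 1. Picking genes by their ratios in Kdr-negative cells by itself favours open points nearer to 1.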

How the data were processed

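The authors deposited unnormalised UMI counts, in 1 matrix of genes by barcodes for EB and 1 for YS, with empty droplets still in them. The authors used mm10, per the submitters' processing notes. The sources used here name no aligner, counting program or annotation. Of 33456 gene IDs 32655 matched GENCODE M21 (GRCm38), which gave coordinates, and the first ID was taken for the 71 symbols with several IDs. Cells, groups and call limits are as given above. No doublet caller was run and no doublet was removed. Of the 334 cells 12 were among the 93 EB cells with the most UMIs. The EB and YS cells shared 2 barcodes, and 0 belonged to the group. Counts were summed over cells, and intervals computed with scipy 1.17.1, numpy 2.4.6 and pandas 2.3.3 in Python 3.11.15. The intervals were tested on simulated Poisson counts with no variation between cells. That test therefore does not cover genes whose UMIs come from few cells. Free RNA was taken from barcodes of rank 10001 to 50000. The genes named are the 12 highest and 12 lowest in ratio per comparison at 100 CPM or more (gene models aside), the 10 most like Mesp1, all markers, streak and Nodal genes, and the 2 highest and 2 lowest of each other of 29 lists. Further list members, and all genes of the Hand1 division, were chosen after their values were seen. Some genes that the rule names are not reported here. The group and the lists were chosen with earlier results of these data known.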

Additional observations from a re-analysis of the deposited data

How the results depend on the processing

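No paired analysis was possible because each source had 1 library. Limits on mitochondrial share, depth, Mesp1, Kdr and Sox17, thinning, scaling, a mean over cells and the level minimum were varied 1 at a time. With Mesp1 at 1000 CPM or more the group held 198 cells in place of 334. With every cell thinned to 6000 UMIs, 21 genes were higher than in all other EB cells, and 178 were higher and 269 lower than in the 56 Kdr-positive Mesp1-high cells left. Of 481 thinned members 128 had Kdr at full depth. With no minimum level, 259 genes were higher and 1153 lower than in all other EB cells, and 538 higher and 341 lower than in Kdr-positive Mesp1-high cells. Against cells with at least 4 Kdr UMIs, 64 were higher and 50 lower, and against cells with at least 1, 24 were higher. Without the deepest 5% of cells 44 were lower than in Kdr-positive Mesp1-high cells. For the Hand1 division, whose alternatives were chosen after seeing the data, 46 genes were lower with a limit of 4 UMIs, and 115 were higher and 148 lower after thinning. The cause was not tested. Signs were followed for 26 genes against all other EB cells, 27 against Kdr-positive Mesp1-high cells and 24 of the Hand1 division. They were mainly genes picked for the largest ratios in the same cells, which by itself favours a kept sign. Most other genes named in the text were not followed. The sign was kept in all 312 combinations of gene and setting against all other EB cells and in all 120 of the Hand1 division. The value was counted as moved from the main one in 49 and 31 of these, and in 77 of 405 against Kdr-positive Mesp1-high cells. Against Kdr-positive Mesp1-high cells 4 of 405 changed sign, each for Snai1, whose log2 ratio was -0.03 and became 0.05, 0.03, 0.28 and 0.07. In both main comparisons the median log2 ratio of the genes compared stayed within 0.1 of 0 in every setting. Scaling by the median ratio sets it to 0 by construction.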

Other observations

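Genes of no list were also higher in Kdr-negative than in Kdr-positive Mesp1-high cells. Apart from Psmb8 and Psmb10, those given here were picked after their values were seen. Psmb8 and Psmb10, which encode subunits of the immunoproteasome, were 104 and 191 CPM in Kdr-negative Mesp1-high cells against 40.7 and 107 CPM in Kdr-positive Mesp1-high cells. Tapbp, which loads peptides onto class I molecules, was 86.2 CPM against 41.6 CPM, the interferon regulatory factor gene Irf1 was 33.2 CPM against 15.3 CPM and Gbp2 was 29.8 CPM against 10.2 CPM. B2m, the light chain of class I molecules, had a ratio of 1.09 (0.97 to 1.22). Against all other EB cells the ratios were nearer to 1, with 1.23 for Psmb8, 1.26 for Psmb10, 1.35 for Tapbp, 1.09 for Irf1 and 1.58 for Gbp2. The lipoxygenase gene Alox15 was 83.8 CPM against 23.3 CPM in Kdr-positive Mesp1-high cells and 45.5 CPM in all other EB cells.

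The planar polarity gene Prickle1 and the semaphorin gene Sema6a were higher than in both comparison groups. Prickle1 was 26.1 CPM in Kdr-negative Mesp1-high cells, 9.88 CPM in Kdr-positive Mesp1-high cells and 10.8 CPM in all other EB cells, and Sema6a was 29.8, 14 and 12.9 CPM. Asb4, a gene of early endothelial progenitors, was 6.43 CPM against 54.0 CPM in Kdr-positive Mesp1-high cells and 24.4 CPM in all other EB cells. These values come from 1 library with counting intervals only, and no theme was tested.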
